A study of Mus musculus with 6 samples.

Results

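Cholesterol is built from acetyl-CoA through mevalonate, isoprenoid units, squalene and lanosterol, and animal cells match this synthesis to their sterol content through one feedback loop. The transcription factor SREBP2 is held in the endoplasmic reticulum by INSIG proteins while sterol is plentiful, and is released to switch on the genes of the enzymes when sterol is short. Lymphocytes raise this programme when they grow and divide, because new membrane needs sterol and unsaturated fatty acids. The 8 genes described here were chosen by symbol from the 55450 genes of the count table: the factor Srebf2, its brake Insig1, the synthesis enzymes Hmgcs1, Idi1, Fdft1, Sqle and Lss, and the fatty acid desaturase Scd2. Each symbol matched 1 row of the table. The set was labelled as cholesterol synthesis and LDL uptake, but it holds regulators, synthesis enzymes and a desaturase and no gene of a lipoprotein receptor, so no statement on LDL uptake is made from it.

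RNA was sequenced in bulk in 6 libraries of sorted lymphocytes, all from the mammary tissue of E18.5 pregnancies in mice. Of these, 3 came from double negative (DN) NK1.1+ lymphocytes and 3 from CD8 beta+ T cells, in a study that asked whether unconventional lymphocytes inside the mammary epithelium act on its differentiation. The labels do not name the markers that DN cells lack, and give no strain, genotype, age or treatment for either group. Nothing in them ties each library to its own animal, so a p-value here reflects only how far these samples spread, and that spread may be technical.

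Depth was 11440721 to 12820875 counts in DN NK1.1+ libraries and 7961360 to 14367299 counts in CD8 beta+ libraries. The sort markers followed the labels: Cd8b1, for the CD8 beta chain, was at 2.57 ± 1.58 CPM in DN NK1.1+ and 949 ± 57.8 CPM in CD8 beta+ libraries, and Klrb1c, for NK1.1, at 639 ± 20.8 CPM in DN NK1.1+ and 37.1 ± 5.68 CPM in CD8 beta+ libraries (CPM, counts scaled to a common library size after TMM; mean ± SD, n = 3 each). Markers of other cells were present. Summed luminal epithelial and milk genes ran from 426 to 2202 CPM in DN NK1.1+ and from 733 to 1055 CPM in CD8 beta+ libraries, and summed myeloid genes from 385 to 472 CPM in DN NK1.1+ and from 191 to 287 CPM in CD8 beta+ libraries. Itgax, an integrin gene, made up 258 to 280 CPM of the myeloid sum in DN NK1.1+ and 102 to 130 CPM in CD8 beta+ libraries. Without it the sums were 214, 105 and 172 CPM in DN NK1.1+ and 88.8, 109 and 157 CPM in CD8 beta+ libraries, and the groups overlapped. Of the lists of other cell types, 1 of 12 tested luminal genes, 1 of 7 fibroblast and endothelial genes and 2 of 10 myeloid genes were higher and 0 of them lower, and 0 of 4 basal genes and 0 of 1 tested adipocyte genes were called (edgeR; 0 of the basal and 0 of the adipocyte genes at an unadjusted p under 0.05). Over all tested genes 7.84% were higher and 5.99% lower. An unadjusted p under 0.05 was met by 1 luminal, 1 fibroblast and endothelial and 3 myeloid genes (edgeR). The log2 fold change was above 0 for 11 of the 12 luminal genes, with a median of 0.535 beside −0.0033 over all tested genes. The genes called higher were Epcam in the luminal list, Pecam1 in the fibroblast and endothelial list, and Itgax and Csf1r in the myeloid list. Epcam had 30.8, 32.8 and 32.3 CPM in DN NK1.1+ libraries and 7.41, 6.72 and 4.02 CPM in CD8 beta+ libraries. Its DN NK1.1+ values did not follow the luminal sums, which were 426, 1150 and 2202 CPM in replicates 1, 2 and 3. The adipocyte genes Adipoq, Plin1, Cidec, Retn and Cfd were at 0 counts in all 6 libraries.

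SREBP2 is known to act through sterol regulatory elements in the promoters of its targets, beside other factors bound close by. Of the 8 genes, 5 (Srebf2, Insig1, Hmgcs1, Idi1 and Lss) had an entry in the RefSeq promoter table (build GRCm38.p6, which has the coordinates of mm10). The 250 bases before each RefSeq start were searched on both strands for TCACNCCA, a core of the sterol regulatory element, and for the E-box CACGTG. TCACNCCA was found in Hmgcs1 and Srebf2, and CACGTG in Insig1, against 3.67% and 6.02% of all 32851 promoters in the table. The core was chosen after these sequences had been seen, so its presence is a description. The 3 promoters that hold such a match are shown up to the first annotated start in RefSeq or GENCODE, on the plus strand, with the matches in capitals. They lie at chr13:119690101-119690350 (Hmgcs1), chr15:82147019-82147180 (Srebf2) and chr5:28071162-28071362 (Insig1).
Hmgcs1: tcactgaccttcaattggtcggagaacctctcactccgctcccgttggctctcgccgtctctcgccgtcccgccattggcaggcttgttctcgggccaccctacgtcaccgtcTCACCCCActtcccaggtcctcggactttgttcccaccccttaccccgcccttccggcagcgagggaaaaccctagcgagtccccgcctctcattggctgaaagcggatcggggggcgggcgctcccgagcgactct
Srebf2: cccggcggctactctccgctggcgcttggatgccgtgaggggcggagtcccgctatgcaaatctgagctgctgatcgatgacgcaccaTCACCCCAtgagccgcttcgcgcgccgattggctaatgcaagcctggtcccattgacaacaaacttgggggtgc
Insig1: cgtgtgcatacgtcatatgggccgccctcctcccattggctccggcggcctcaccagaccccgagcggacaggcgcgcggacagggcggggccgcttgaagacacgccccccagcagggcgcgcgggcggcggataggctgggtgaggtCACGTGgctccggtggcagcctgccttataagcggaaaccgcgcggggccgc
All 5 promoters searched also held CCAAT, a box bound by NF-Y, and GGGCGG, a box bound by Sp factors, which were found in 33.8% and 32.7% of all promoters. These letters describe the sequences and do not show that a factor was bound in these cells.

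Of the 8 genes, 1 was lower and 0 were higher in DN NK1.1+ than in CD8 beta+ libraries. Scd2 fell to 0.568 of its CD8 beta+ level, while Srebf2, Insig1 and the 5 cholesterol enzymes did not pass the test. All 8 passed the filter on low counts. Over all 13171 tested genes 13.8% were called, 7.84% higher and 5.99% lower (edgeR's quasi-likelihood test, adjusted p under 0.05), so that 1 of 8 is near the background. An unadjusted p under 0.05 was met by Scd2 alone, 1 of 8 beside 25% of all tested genes. DESeq2 and limma-voom also called 0 of the 8 genes higher. The median log2 fold change of the 8 genes was 0.02, beside −0.0033 over all tested genes. In bulk libraries fewer cells that express a gene and less RNA of it per cell cannot be told apart.

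**Figure D1:**
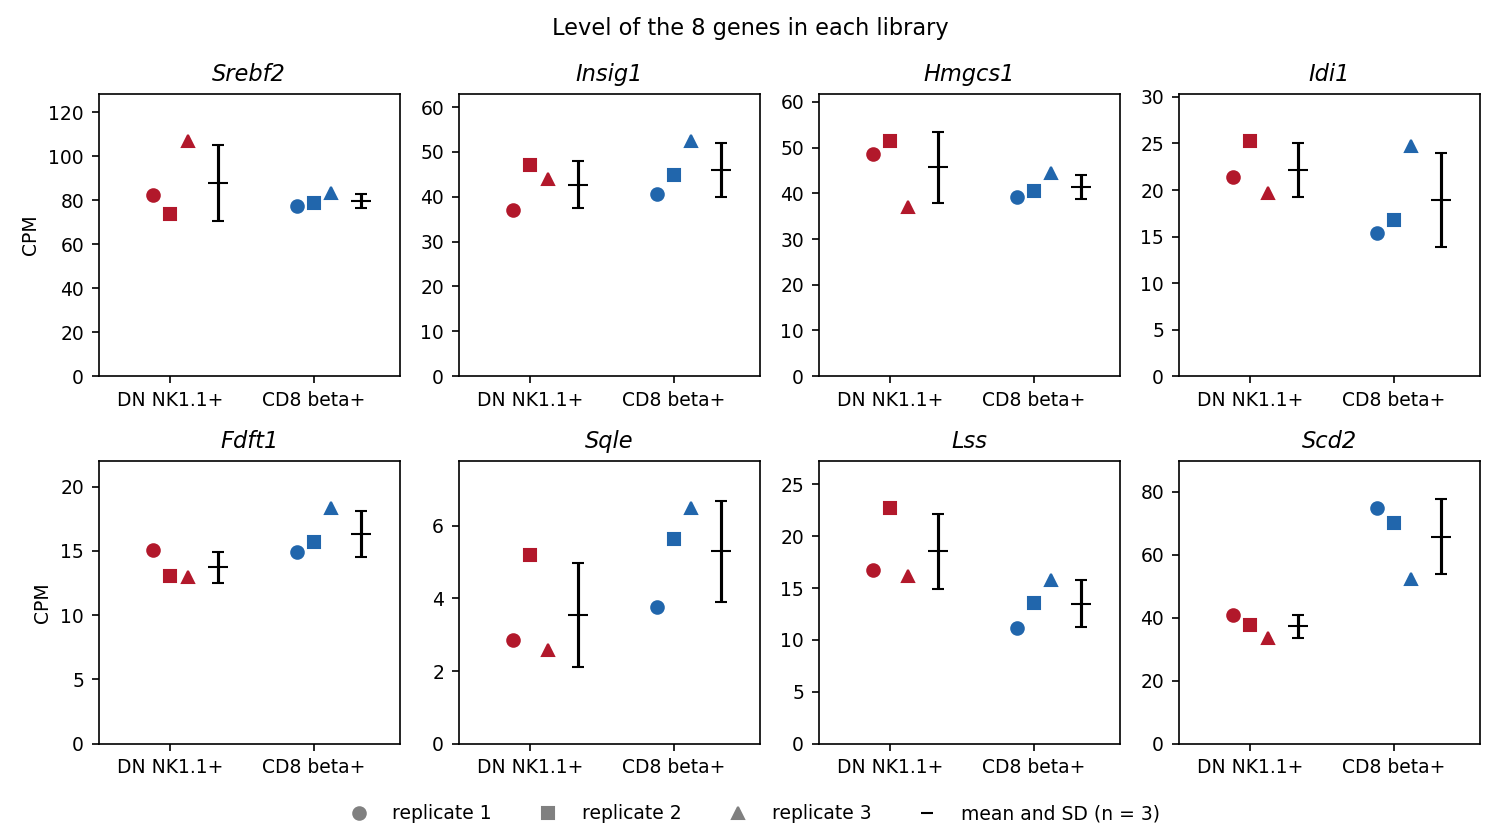
Level of each gene in CPM (vertical axes from 0), with the 3 DN NK1.1+ libraries in red on the left and the 3 CD8 beta+ libraries in blue on the right of each panel; bars give the mean and SD of 3 libraries. The groups lie apart for Scd2 (33.5 to 40.8 CPM in DN NK1.1+ and 52.3 to 74.9 CPM in CD8 beta+) and narrowly for Lss, and overlap for the other 6 genes.

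Srebf2, which encodes SREBP2, had 82.6, 73.7 and 107 CPM in DN NK1.1+ libraries and 77.3, 78.6 and 83.2 CPM in CD8 beta+ libraries. The DN NK1.1+ values spread on both sides of the CD8 beta+ values, and replicate 3 was the highest of all 6 libraries. The fold change was 1.1, with a 95% interval of 0.906 to 1.34 (adjusted p = 0.584, edgeR). Its log2 fold change was 0.14 with all libraries and −0.03 when DN NK1.1+ replicate 3 was left out. An intron of Srebf2 hosts the microRNA gene Mir33, which had 0 counts in every library. No statement on the mature microRNA is made from these counts.

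Insig1, whose product retains SREBP2 and whose own gene is a target of it, had 37.0, 47.2 and 44.0 CPM in DN NK1.1+ libraries and 40.7, 44.8 and 52.5 CPM in CD8 beta+ libraries. The groups overlapped between 40.7 and 47.2 CPM, with the lowest value in a DN NK1.1+ library and the highest in a CD8 beta+ library. The fold change was 0.928 (95% interval 0.745 to 1.16, adjusted p = 0.732, edgeR).

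The enzymes before squalene also had overlapping groups. Hmgcs1, for the synthase that makes HMG-CoA, had 48.5, 51.5 and 36.9 CPM in DN NK1.1+ libraries and 39.3, 40.6 and 44.4 CPM in CD8 beta+ libraries, so that DN NK1.1+ libraries held both the highest values and the lowest. Its fold change was 1.1 (95% interval 0.881 to 1.38, adjusted p = 0.640, edgeR). Idi1, for the isomerase of the isoprenoid units, had 21.4, 25.3 and 19.7 CPM in DN NK1.1+ libraries and 15.3, 16.8 and 24.7 CPM in CD8 beta+ libraries. A single CD8 beta+ library, replicate 3, lay inside the DN NK1.1+ range. The fold change of Idi1 was 1.17 (95% interval 0.847 to 1.6, adjusted p = 0.599, edgeR). Its neighbour and relative Idi2 had 0 counts in all 6 libraries.

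Fdft1, for squalene synthase, the first enzyme given over to sterols alone, had 15.1, 13.1 and 13.0 CPM in DN NK1.1+ libraries and 14.9, 15.7 and 18.3 CPM in CD8 beta+ libraries. Only DN NK1.1+ replicate 1 reached the CD8 beta+ range. The fold change was 0.840 (95% interval 0.618 to 1.14, adjusted p = 0.516, edgeR). Fdft1 shares 774 of its 4227 exon bases with Ctsb on the opposite strand, which had 1259 to 2621 counts per library against 115 to 217 for Fdft1. Whether counting used strand is not given in the sources used here, so reads from the shared stretch cannot be assigned with certainty.

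Sqle and Lss act next to each other, and their values pointed in opposite directions without passing the test. Sqle, for the epoxidase that acts on squalene and is a control point of the pathway, had 2.85, 5.20 and 2.58 CPM in DN NK1.1+ libraries and 3.77, 5.64 and 6.49 CPM in CD8 beta+ libraries. With 29 to 78 counts per library, its fold change of 0.666 had a wide 95% interval of 0.351 to 1.27 (adjusted p = 0.461, edgeR). Lss, for the cyclase that forms lanosterol, had 16.7, 22.7 and 16.2 CPM in DN NK1.1+ libraries and 11.2, 13.6 and 15.8 CPM in CD8 beta+ libraries. Every DN NK1.1+ value was above every CD8 beta+ value, as held for 16% of all tested genes (30.6% in either direction), but the gap between the nearest libraries was small. The fold change of Lss was 1.37 (95% interval 0.983 to 1.91, unadjusted p = 0.0612, adjusted p = 0.230, edgeR). For the 7 genes other than Scd2 the intervals of the fold change lay between 0.351 and 1.91.

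Scd2 encodes a stearoyl-CoA desaturase, an enzyme that puts a double bond into saturated fatty acids for membrane lipids. It had 40.8, 37.7 and 33.5 CPM in DN NK1.1+ libraries and 74.9, 70.1 and 52.3 CPM in CD8 beta+ libraries. All DN NK1.1+ values were below all CD8 beta+ values, as for 14.6% of all tested genes, and CD8 beta+ replicate 3 was the nearest to them. Scd2 averaged 37.3 ± 3.64 CPM in DN NK1.1+ and 65.8 ± 11.9 CPM in CD8 beta+ libraries (SD, n = 3 each), with a log2 fold change of −0.82 (SE 0.151, adjusted p = 0.00155, edgeR). The 95% interval of the fold change was 0.454 to 0.710. The relative Scd1, which lies on the same chromosome, had 8.45, 17.1 and 37.2 CPM in DN NK1.1+ libraries and 21.2, 27.5 and 17.1 CPM in CD8 beta+ libraries, and missed the threshold (adjusted p = 0.961, edgeR). The 2 desaturase genes resemble each other, and counts may have been split between them.

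B cell markers moved in the same direction as Scd2. All 4 genes of that list were tested and 1, Cd79b, was lower, at 4.35 ± 1.42 CPM in DN NK1.1+ and 10.9 ± 3.07 CPM in CD8 beta+ libraries (adjusted p = 0.0180, edgeR). Their summed level was 12.8, 11.7 and 5.92 CPM in DN NK1.1+ libraries and 29.9, 38.2 and 16.8 CPM in CD8 beta+ libraries, lowest in replicate 3 of each group, as was Scd2. The part of these cells in the Scd2 result was not tested. Luminal sums ran in the reverse order of Scd2 within the DN NK1.1+ group, at 426, 1150 and 2202 CPM in replicates 1, 2 and 3, and were 1055, 733 and 941 CPM in CD8 beta+ libraries. Scd1 ran in the order of these luminal sums in DN NK1.1+ libraries, but not in CD8 beta+ libraries. The part of luminal cells in the levels of Scd2 and Scd1 was not tested either.

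The 8 genes stood at very unequal levels. Per kilobase of annotated exon, Insig1 was highest in both groups, at 13.8 ± 1.69 CPM per kilobase in DN NK1.1+ and 14.9 ± 1.94 in CD8 beta+ libraries. Scd2 had rank 4 in DN NK1.1+ libraries, at 6.83 ± 0.666 CPM per kilobase, below Srebf2 and Hmgcs1, and rank 2 in CD8 beta+ libraries, at 12 ± 2.17. Idi1, Fdft1, Lss and Sqle followed in that order in both groups, down to 0.638 ± 0.260 CPM per kilobase for Sqle in DN NK1.1+ and 0.955 ± 0.251 in CD8 beta+ libraries. Neighbours whose libraries overlapped were Insig1 with Srebf2, Srebf2 with Hmgcs1 and Scd2 with Idi1 in DN NK1.1+ libraries, and Insig1 with Scd2, Scd2 with Srebf2 and Lss with Sqle in CD8 beta+ libraries. The exon length is the union over all annotated transcripts and is 10787 bases for Lss, against 3093 to 7184 bases for the other genes, which lowers its value on this scale.

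Within the CD8 beta+ group, replicate 3 held the highest value of 7 of the 8 genes and the lowest value of Scd2. Of all tested genes, 37.9% were highest in that library among the CD8 beta+ libraries. Cell cycle genes had the same library on top: 17 of 18 were highest there, and their sum was 2680 CPM against 1880 and 1751 CPM in replicates 1 and 2. Between the groups 0 of the 18 cell cycle genes were called with edgeR (3 at an unadjusted p under 0.05) and 0 with limma-voom. Their log2 fold change was above 0 for 0 of the 18, so all pointed lower in DN NK1.1+ libraries. The median was −0.232, beside −0.0033 over all tested genes. Top2a, for a topoisomerase of dividing cells, was called lower with DESeq2 and with the replicate block (1 gene each), with no low-count filter (1 of 2 genes called) and without CD8 beta+ replicate 2 (1 of 3). In the DN NK1.1+ group, replicate 2 held the highest value of 5 of the 8 genes, beside 31.7% of all tested genes, while replicate 3 was highest for 15 of the 18 cell cycle genes and for 1 of the 8, Srebf2. These are single libraries with no test, and the part of cell division in the levels was not tested. Summed over the 8 genes the level was 265, 276 and 273 CPM in DN NK1.1+ and 277, 286 and 298 CPM in CD8 beta+ libraries. Without Scd2 the sums were 224, 239 and 239 CPM in DN NK1.1+ and 203, 216 and 245 CPM in CD8 beta+ libraries, and the groups overlapped.

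**Figure D2:**
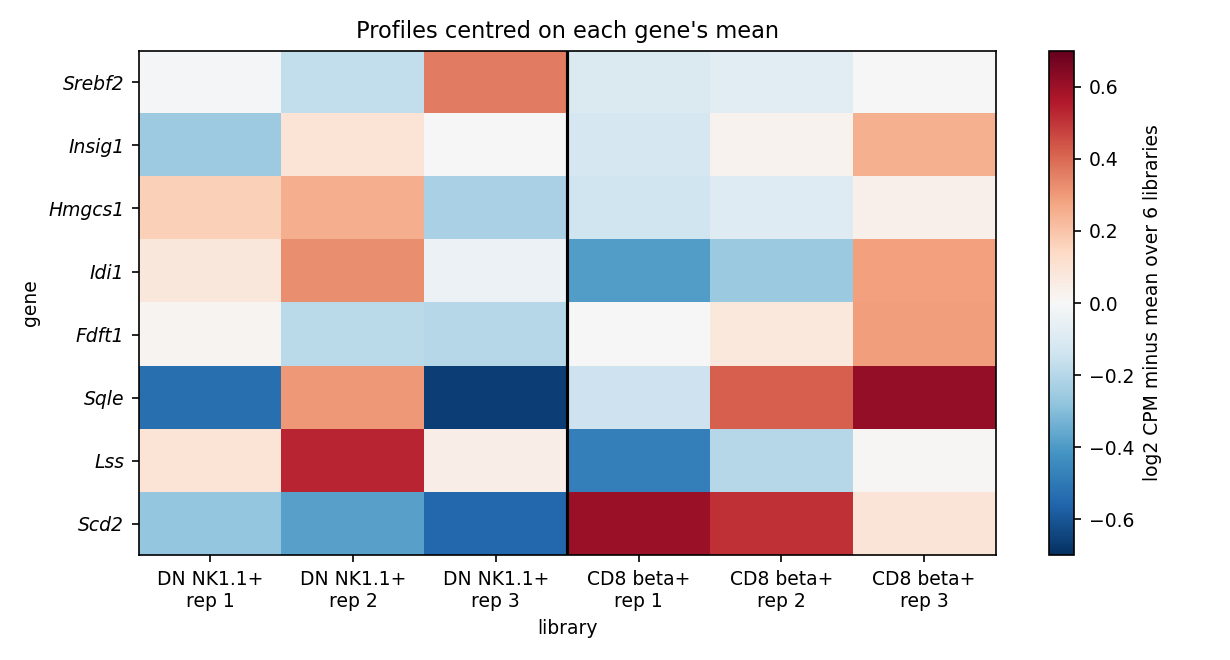
Level of each gene in each library as log2 CPM minus the gene's mean over the 6 libraries (colour scale), with DN NK1.1+ libraries left of the line and CD8 beta+ libraries right of it. Scd2 ran from 0.60 in CD8 beta+ replicate 1 to −0.55 in DN NK1.1+ replicate 3, and Idi1 and Lss had similar rows, lowest in CD8 beta+ replicate 1 and highest in DN NK1.1+ replicate 2.

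Profiles were compared as the root mean square distance between log2 CPM values centred on each gene's mean, over the 6 libraries. The closest pair among the 8 genes was Idi1 and Lss, at 0.153 log2 units, followed by Hmgcs1 and Idi1 at 0.184 and by Insig1 and Fdft1 at 0.187. Scd2 and Lss were the farthest pair, at 0.708. Scd2 was also the farthest from the mean profile of the set, at 0.434, and Insig1 the nearest, at 0.0960. Among 9416 other genes with at least 5 CPM, the 5 nearest to the mean profile were Fam107b, Tent4b, Rinl, 2310033P09Rik and Ufd1, at 0.0200 to 0.0425 log2 units. All 5 lay nearer to the mean profile than Insig1 did. That profile averages genes that differ from one another and ran only from −0.16 to 0.20, so nearness to it need not be likeness to any of the 8. Ufd1, for a cofactor in the removal of proteins from the endoplasmic reticulum, is also in the list of sterol sensing genes, and no link is drawn from this.

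**Figure D3:**
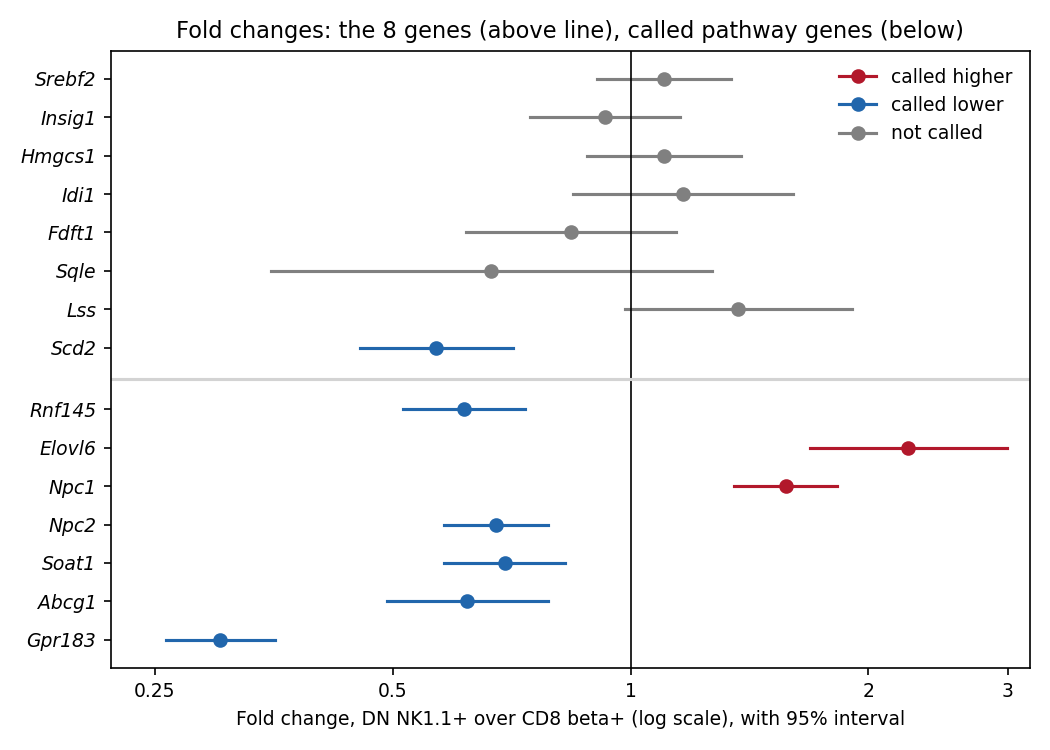
Fold change of DN NK1.1+ over CD8 beta+ libraries on a log scale, with 95% intervals, for the 8 genes (above the line) and for the 7 called genes of the wider pathway lists (below it). Of the 8, Scd2 has an interval that does not reach 1.

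Other genes of sterol and fatty acid metabolism were described from 7 lists of 70 genes in all, of which 64 were tested, 2 were higher and 5 lower (10.9%, beside 13.8% of all tested genes). The synthesis enzymes outside the 8 genes were called in neither direction. Of 6 tested enzymes of mevalonate and isoprenoid steps, 0 were higher and 0 lower, with a median log2 fold change of −0.08 (edgeR; 2 at an unadjusted p under 0.05; 0 with DESeq2 and 0 with limma-voom in either direction). The mevalonate kinase gene Mvk and the decarboxylase gene Mvd were at 5.68 ± 0.927 and 4.85 ± 1.55 CPM in DN NK1.1+ libraries, against 3.57 ± 1.29 and 2.35 ± 0.620 CPM in CD8 beta+ libraries. Pmvk, for the kinase between them, was at 2.54 ± 0.673 CPM in DN NK1.1+ and 4.82 ± 1.18 CPM in CD8 beta+ libraries. Ggps1, which had the highest mean CPM of the list and whose product makes the geranylgeranyl anchor of small GTPases, was at 41.5 ± 2.34 CPM in DN NK1.1+ and 54.7 ± 5.51 CPM in CD8 beta+ libraries (adjusted p = 0.0589, edgeR).

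Of 10 enzymes from lanosterol to cholesterol, 0 were higher and 0 lower, with a median log2 fold change of −0.03 (edgeR; 2 at an unadjusted p under 0.05; 1 higher, Cyp51, with DESeq2 and with limma-voom). Cyp51, for the demethylase that acts on lanosterol, the product of Lss, lay just outside the threshold. It had 53.5, 56.4 and 51.2 CPM in DN NK1.1+ libraries and 27.3, 35.8 and 47.3 CPM in CD8 beta+ libraries, with all DN NK1.1+ values above. Its fold change was 1.46 (95% interval 1.13 to 1.88, adjusted p = 0.0512, edgeR), and it passed with DESeq2 (adjusted p = 0.0388), with limma-voom (0.0283) and without CD8 beta+ replicate 3 (0.00511; 0.00511 to 0.220 over all alternatives). Hsd17b7 was at 9.96 ± 1.25 CPM in DN NK1.1+ and 6.67 ± 2.17 CPM in CD8 beta+ libraries. Lbr, for a sterol reductase that is also a receptor of the nuclear lamina, had the highest mean CPM of the list, at 303 ± 5.57 CPM in DN NK1.1+ and 323 ± 18.8 CPM in CD8 beta+ libraries.

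Of 12 genes of SREBP processing and sterol sensing, 0 were higher and 1 was lower, with a median log2 fold change of 0.09 (edgeR; 5 at an unadjusted p under 0.05; also 0 higher and 1 lower with DESeq2 and with limma-voom). The 1 called gene was Rnf145, for a ubiquitin ligase of the endoplasmic reticulum that answers to sterols. It had 64.1, 64.2 and 80.3 CPM in DN NK1.1+ libraries and 120, 117 and 102 CPM in CD8 beta+ libraries, a fold change of 0.616 (95% interval 0.516 to 0.736, adjusted p = 8.58e-04, edgeR). Scap, for the escort protein of SREBP, was at 44.5 ± 11.2 CPM in DN NK1.1+ and 42.6 ± 2.61 CPM in CD8 beta+ libraries. Insig2 was at 19.2 ± 3.01 CPM in DN NK1.1+ and 13.2 ± 4.10 CPM in CD8 beta+ libraries. Srebf1, for the factor that favours fatty acid genes, was at 38.4 ± 9.60 CPM in DN NK1.1+ and 31.1 ± 3.97 CPM in CD8 beta+ libraries, and neither of these genes passed. Erlin2, for a sterol-bound scaffold, was at 15.8 ± 1.61 CPM in DN NK1.1+ and 10.1 ± 0.300 CPM in CD8 beta+ libraries (adjusted p = 0.0665, edgeR). Vcp, with the highest mean CPM of the list, was at 368 ± 39.9 CPM in DN NK1.1+ and 312 ± 22.9 CPM in CD8 beta+ libraries.

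Fatty acid genes included one that moved against Scd2. Of 14 tested, 1 was higher and 0 lower, with a median log2 fold change of 0.11 (edgeR; 5 at an unadjusted p under 0.05; 2 higher with DESeq2 and 3 with limma-voom, 0 lower with either). Elovl6, for the elongase that makes stearate, a substrate of the desaturases, had 28.9, 30.8 and 26.9 CPM in DN NK1.1+ libraries and 11.4, 11.8 and 15.3 CPM in CD8 beta+ libraries. The groups were far apart, and the fold change was 2.25 (95% interval 1.69 to 2.99, adjusted p = 6.42e-04, edgeR). Fasn, for fatty acid synthase, had 164, 163 and 232 CPM in DN NK1.1+ libraries and 156, 126 and 110 CPM in CD8 beta+ libraries (adjusted p = 0.0703, edgeR). It passed with DESeq2 (adjusted p = 0.0101), with limma-voom (0.0461) and without CD8 beta+ replicate 1 (0.0284; 1.58e-04 to 0.207 over all alternatives). Its highest value lay in DN NK1.1+ replicate 3, the library with the highest luminal sum. Acly and Elovl5 were at 224 ± 15.8 and 216 ± 3.32 CPM in DN NK1.1+ libraries, against 192 ± 7.83 and 185 ± 6.36 CPM in CD8 beta+ libraries, and did not pass. Acss2 was at 28.7 ± 1.70 CPM in DN NK1.1+ and 37.1 ± 5.48 CPM in CD8 beta+ libraries (adjusted p = 0.167, edgeR).

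Genes of sterol movement held opposed changes. Of 14 tested for trafficking and esterification, 1 was higher and 2 were lower, with a median log2 fold change of 0.17. These were edgeR calls, and DESeq2 and limma-voom gave the same counts. An unadjusted p under 0.05 was met by 5 of the 14 (edgeR), beside 25% of all tested genes, of which 13.8% were called. Npc1 and Npc2 encode the partners that carry cholesterol out of lysosomes, and their values moved apart. Npc1 rose, with 190, 181 and 178 CPM in DN NK1.1+ libraries and 111, 108 and 131 CPM in CD8 beta+ libraries (fold change 1.57, 95% interval 1.35 to 1.83, adjusted p = 3.47e-04, edgeR). Npc2 fell, with 89.1, 110 and 99.9 CPM in DN NK1.1+ libraries and 146, 149 and 147 CPM in CD8 beta+ libraries (fold change 0.676, 95% interval 0.580 to 0.787, adjusted p = 0.00137, edgeR). Soat1, for the enzyme that esterifies cholesterol for storage, fell to 72.1 ± 4.64 CPM in DN NK1.1+ libraries, against 104 ± 14.2 CPM in CD8 beta+ libraries (fold change 0.693, adjusted p = 0.00662, edgeR). Stard3, for a sterol transfer protein of endosomes, was at 12.4 ± 2.37 CPM in DN NK1.1+ and 7.36 ± 0.228 CPM in CD8 beta+ libraries (adjusted p = 0.0703, edgeR). Macrophages and other myeloid cells also express Npc1 and Npc2. Of 10 tested myeloid markers 2, Itgax and Csf1r, were higher and 0 lower. The log2 fold change was above 0 for 9 of the 10, with a median of 0.575 beside −0.0033 over all tested genes. Csf1r was at 28.3 ± 9.20 CPM in DN NK1.1+ and 15.3 ± 3.78 CPM in CD8 beta+ libraries (adjusted p = 0.0260, edgeR). Myeloid sums, given above, were higher in every DN NK1.1+ library than in any CD8 beta+ library. Once Itgax was left out they overlapped, through DN NK1.1+ replicate 2 alone, at 105 CPM. Replicates 1 and 3 were at 214 and 172 CPM, beside 88.8, 109 and 157 CPM in CD8 beta+ libraries. The part of myeloid cells in these results was not tested.

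Of 7 tested genes of sterol efflux and of the sterol receptor LXR, 0 were higher and 1 was lower, with a median log2 fold change of 0.05 (edgeR; 1 at an unadjusted p under 0.05; also 0 higher and 1 lower with DESeq2 and with limma-voom). Abcg1, for a sterol exporter, had 57.2, 54.6 and 69.9 CPM in DN NK1.1+ libraries and 118, 100 and 75.2 CPM in CD8 beta+ libraries (fold change 0.621, 95% interval 0.492 to 0.785, adjusted p = 0.00923, edgeR). Its call ended without DN NK1.1+ replicate 1 (adjusted p = 0.0536), DN NK1.1+ replicate 2 (0.0560) or CD8 beta+ replicate 1 (0.0539; 1.61e-06 to 0.0560 over all alternatives). Abca1, for the other main exporter, was at 34.4 ± 4.82 CPM in DN NK1.1+ and 38.4 ± 21.02 CPM in CD8 beta+ libraries, and was lower by the test when CD8 beta+ replicate 3 was left out (adjusted p = 0.0304; 0.0304 to 1 over all alternatives). Mylip, for a ubiquitin ligase induced by LXR, was at 116 ± 18.6 CPM in DN NK1.1+ and 111 ± 5.31 CPM in CD8 beta+ libraries. Of 5 genes for oxysterol enzymes and their receptor, 1 was tested. Gpr183, for the receptor by which lymphocytes migrate along oxysterols, had 40.0, 42.6 and 44.0 CPM in DN NK1.1+ libraries and 150, 139 and 130 CPM in CD8 beta+ libraries. It was the gene of these lists with the smallest adjusted p, at a fold change of 0.303 (95% interval 0.258 to 0.355, adjusted p = 2.92e-08, edgeR). B cells also express Gpr183, and the sums of their markers, given above, lay below those of CD8 beta+ libraries in each DN NK1.1+ library; their part in the Gpr183 result was not tested.

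**Figure D4:**
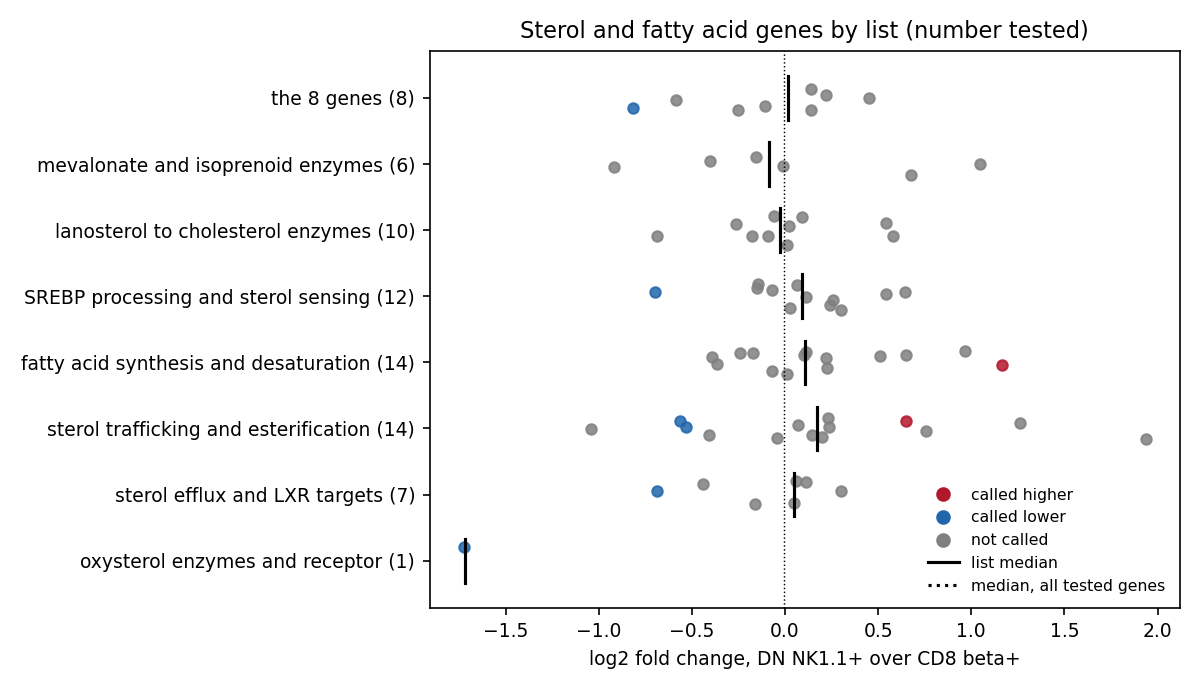
Log2 fold change of DN NK1.1+ over CD8 beta+ for each tested gene, by list, with the number tested in brackets; short lines are list medians and the dotted line is the median of all tested genes. The points of the 2 lists of synthesis enzymes lie on both sides of 0 with none called, and the 7 called genes lie in the other 5 lists.

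On build mm10 the 8 protein-coding genes lie apart from one another. Hmgcs1 and Idi1 are on chromosome 13, from 119690379 to 119708260 and from 8885501 to 8892451. Srebf2 and Sqle are on chromosome 15, from 82147181 to 82205379 and from 59315077 to 59331192. Insig1 is on chromosome 5 from 28071363 to 28078662, Lss on chromosome 10 from 76531588 to 76557138 and Fdft1 on chromosome 14 from 63145150 to 63179578. Scd2 is on chromosome 19 from 44293674 to 44306864, before Scd1, which runs from 44394455 to 44407879.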

How the data were processed

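The values deposited by the authors carry no stated unit and were read here to be expected counts, since they hold at most 2 decimals and sum to different totals. The submitters' processing notes list build mm10 and Cell Ranger 7.1.0, a single-cell tool; how the bulk reads were aligned and counted, and whether by strand, is not stated there. All 55450 IDs and symbols matched GENCODE M21, which gave coordinates and exon lengths. Rounded counts entered edgeR 4.0.16 (R 4.3.3), whose quasi-likelihood F test was run on a robust fit of group alone after TMM scaling and a filter on low counts (minimum count 10, minimum total 15), with Benjamini-Hochberg adjustment over all 13171 tested genes and a threshold of 0.05. SE values derive from the F statistic, and intervals are 95%. Chi-square per degree of freedom was 9.07 to 23.5 for library pairs within a group, so none was a copy. The fit was tested on simulated counts. Alternatives were other scalings, other filters, DESeq2 1.42.0, limma-voom (limma 3.58.1), a replicate block and leaving out each library.

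The 8 genes, the 7 pathway lists, the cell cycle list and the 7 marker lists were chosen with earlier results of these data known. The rule for named genes took the 8 genes, the sort genes, up to 3 called genes with at least 5 CPM and the gene with the highest mean CPM of each pathway list, that of each other list, the lymphocyte genes and the 5 genes with the most similar profile. A further 17 list genes (Cyp51, Fasn, Acsl3, Top2a and others given without a call) were named after their values were seen. So were the called marker genes Csf1r and Epcam. Of the lists not described gene by gene, the gene with the highest mean CPM was Mki67 for the cell cycle (553 ± 24.6 CPM in DN NK1.1+ and 623 ± 199 CPM in CD8 beta+), Csn2 for luminal cells (484 ± 395 CPM in DN NK1.1+ and 372 ± 78.3 CPM in CD8 beta+) and Acta2 for basal cells (36.2 ± 50.2 CPM in DN NK1.1+ and 31.7 ± 38.3 CPM in CD8 beta+). It was Fabp4 for adipocytes (20.7 ± 16.7 CPM in DN NK1.1+ and 9.91 ± 17.1 CPM in CD8 beta+), Itgax for myeloid cells (269 ± 11 CPM in DN NK1.1+ and 113 ± 15 CPM in CD8 beta+) and Pecam1 for fibroblasts and endothelium (58.9 ± 9.51 CPM in DN NK1.1+ and 31.8 ± 8.05 CPM in CD8 beta+). Of the lymphocyte genes, Ptprc was at 2543 ± 220 CPM in DN NK1.1+ and 2435 ± 76.4 CPM in CD8 beta+, Cd3e at 522 ± 7.47 CPM in DN NK1.1+ and 765 ± 19.4 CPM in CD8 beta+, and Ncr1 at 273 ± 20.6 CPM in DN NK1.1+ and 0.485 ± 0.182 CPM in CD8 beta+.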

Additional observations from a re-analysis of the deposited data

How the results depend on the processing

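Over 15 alternatives, Scd2 was lower in all 15, with log2 fold changes from −0.97 to −0.72 and adjusted p from 6.33e-07 to 0.0166, and none of the other 7 genes was called in any. Their log2 fold changes without any one library ran from −0.029 to 0.24 for Srebf2, −0.19 to −0.01 for Insig1, 0.04 to 0.27 for Hmgcs1, 0.09 to 0.45 for Idi1, −0.33 to −0.17 for Fdft1, −0.97 to −0.40 for Sqle and 0.27 to 0.57 for Lss. The sign of Srebf2 reversed without DN NK1.1+ replicate 3 (−0.029). Of the lanosterol to cholesterol enzymes 1, Cyp51, was higher with library size only, no low-count filter, a minimum count of 30, DESeq2, limma-voom and the replicate block, and 0 to 1 without single libraries. Of the mevalonate and isoprenoid enzymes 1, Ggps1, was lower with upper quartile scaling and with a minimum count of 30. Of the fatty acid genes 2, Elovl6 and Fasn, were higher with library size only, no low-count filter and DESeq2, 3 with limma-voom (Acsl3 added), and 1 to 3 without single libraries. Without single libraries 0 to 1 sterol sensing gene was higher (Vcp without DN NK1.1+ replicate 3), 0 to 2 efflux genes were lower, and over all genes 681 to 1093 were higher and 499 to 883 lower, beside 1033 and 789. The lowest of these counts came without CD8 beta+ replicate 1. The sign also reversed for Scap without DN NK1.1+ replicate 3 (−0.15, range −0.15 to 0.21 without single libraries), for Mylip without DN NK1.1+ replicate 2 (−0.059, range −0.059 to 0.18), for Abca1 without CD8 beta+ replicate 2 (0.16, range −0.57 to 0.16), and for Scd1 without DN NK1.1+ replicate 1 (0.30), DN NK1.1+ replicate 2 (0.05) or CD8 beta+ replicate 2 (0.13), with a range of −0.78 to 0.30. Mki67 reversed without CD8 beta+ replicate 3 (0.11, range −0.31 to 0.11). The cause was not tested. Same-numbered libraries deviated from their group means with correlations of −0.05, 0.189 and 0.256 for replicates 1, 2 and 3. Replicates 2 and 3 correlated best with their own number and replicate 1 did not. Summed basal genes were highest in replicate 3 of both groups. They were at 8.97, 18.0 and 175 CPM in DN NK1.1+ libraries and 15.1, 12.5 and 131 CPM in CD8 beta+ libraries. The labels do not say whether same-numbered libraries belong together, so pairing is not settled and the main fit left it out. The replicate block gave 1137 higher and 945 lower genes and left Scd2 lower (−0.80), and added Cyp51 (higher) and the cell cycle gene Top2a (lower) to the calls among the pathway and cell cycle lists. Counts of 29 to 78 limit what can be said of Sqle.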
